A study of Mus musculus with 25 samples.

Results

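The 60 genes described here encode collagen chains, other proteins of the extracellular matrix, enzymes and inhibitors that remodel it, and markers of hepatic stellate cells, measured in mouse liver. They are the 44 genes whose symbol has the form of a collagen chain and that have a probe set with 1 gene symbol, and 16 of 18 further genes listed by name. Fbn1 and Loxl2 are on that list but had no probe set with a single symbol. The 60 are part of 19938 genes with such a probe set, of which 15951 passed a filter on dim signals and were tested. All 60 passed it, several of them near the limit of 3.33 on the log2 scale.

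The study asked how liver of young mice responds to diethylnitrosamine (DEN), a carcinogen that hepatocytes activate to a DNA-alkylating agent, when the tumour suppressors Rb, p53 or both are missing. The mice were of strain FVB;129. The knockouts expressed an albumin-promoter Cre and had loxP sites in Rb, p53 or both genes. Pups aged 14 days received 1 intraperitoneal dose of 20 mg/kg DEN, and liver was taken 24 h later by the series text. Untreated wild-type (WT) and double-knockout (DKO) liver gave 3 arrays each, and after DEN there were 5 WT, 5 p53KO, 4 RbKO and 5 DKO arrays. The albumin promoter drives Cre in hepatocytes, not in stellate cells, fibroblasts or endothelium, and whether WT mice carried Cre is not given in the sources used here. The untreated mice are labelled as having had no treatment, while the series text speaks of saline.

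Collagens are triple helices of 3 chains. Fibrillar collagens such as types I and III give tissue its tensile strength, while type IV forms the sheet-like network of basement membranes. In healthy liver the matrix is sparse, and the space of Disse between hepatocytes and sinusoids holds fibronectin and little fibrillar collagen. Stellate cells lie in that space, store vitamin A as retinyl esters made by Lrat, and carry the PDGF receptor beta. When activated they take on a contractile phenotype with smooth muscle actin (Acta2) and make collagen, matrix metalloproteinases and their inhibitors. Hepatocytes also make some matrix proteins, among them plasma fibronectin and type XVIII collagen.

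The values are log2 signals of whole liver, so fewer cells of a type and less RNA per cell cannot be told apart. The labels do not say that the arrays of a group came from separate animals, so p-values measure the spread between arrays, and the number of arrays limits their precision. By their names, 16 arrays belong to set 1, 4 to set 2 and 5 to set 3. All 6 groups are in set 1, while set 2 consists of 3 WT arrays and 1 RbKO array, and set 3 of p53KO and DKO arrays after DEN. The 4 arrays of set 2 stood apart on the first principal component of all genes tested (41.11 to 48.68, against -19.16 to 9.61 in the other sets), so every difference below was fitted with the set as a term and is also given within set 1 where that changed the call. Replicates correlated at r of 0.959 to 0.995 across genes. The Rb1 probe set read 5.55 to 6.28 in RbKO and 5.04 to 6.02 in WT after DEN. The exons it covers are not given in the sources used here, so it does not check the deletion, and Trp53 had no probe set with a single symbol. Of the 10 stellate cell markers listed, 9 had a usable probe set. Lrat (5.42 to 7.52), Reln (5.37 to 7.81) and Colec11 (6.20 to 7.39) lay well above the limit in all 25 arrays, while Des (3.59 to 4.34) and Gfap (3.20 to 3.81) lay near it.

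The 250 bases before the start site of 4 of the genes with the largest falls after DEN in DKO liver are shown here, because these genes fell together and represent a contractile protein (Acta2), a membrane protease (Mmp14), a matricellular protein (Sparc) and a proteoglycan (Bgn). The sequences are from RefSeq on build GRCm38.p6, 5′ to 3′ on the strand of the gene, and capitals mark matches to the motifs named below.
Acta2: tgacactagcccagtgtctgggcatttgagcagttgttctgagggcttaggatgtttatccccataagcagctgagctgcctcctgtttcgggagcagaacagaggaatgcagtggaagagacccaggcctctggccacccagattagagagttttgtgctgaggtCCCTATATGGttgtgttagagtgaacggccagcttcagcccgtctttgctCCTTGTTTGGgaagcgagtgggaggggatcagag
Mmp14: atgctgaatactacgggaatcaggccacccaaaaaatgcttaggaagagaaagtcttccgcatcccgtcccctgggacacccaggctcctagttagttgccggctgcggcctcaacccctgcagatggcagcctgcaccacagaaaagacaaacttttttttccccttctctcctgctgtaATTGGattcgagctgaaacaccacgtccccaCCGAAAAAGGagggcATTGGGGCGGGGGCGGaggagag
Sparc: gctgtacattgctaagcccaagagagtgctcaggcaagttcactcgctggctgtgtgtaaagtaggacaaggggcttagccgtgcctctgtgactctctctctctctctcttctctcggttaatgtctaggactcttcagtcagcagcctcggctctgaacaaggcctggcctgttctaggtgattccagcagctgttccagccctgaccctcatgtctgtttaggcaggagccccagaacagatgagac
Bgn: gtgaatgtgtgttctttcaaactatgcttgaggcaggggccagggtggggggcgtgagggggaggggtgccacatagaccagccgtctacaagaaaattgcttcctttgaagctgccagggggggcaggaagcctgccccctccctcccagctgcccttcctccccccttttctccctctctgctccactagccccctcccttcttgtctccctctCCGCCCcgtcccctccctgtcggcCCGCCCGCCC
They lie at chr19:34255374-34255623 on the minus strand (Acta2), chr14:54431348-54431597 on the plus strand (Mmp14), chr11:55420081-55420330 on the minus strand (Sparc) and chrX:73483351-73483600 on the plus strand (Bgn). By RefSeq the Acta2 gene spans 34240336 to 34255585, so the start site used for its window lies inside the gene. Most of that window, with its marked matches, lies within the gene span, while the other windows end where their genes begin.

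Both strands were searched for 7 motifs, and 44 of the 60 genes had an entry in the promoter table. A CArG-like box, the kind of site that serum response factor binds in muscle and actin genes, was taken as CC and GG around 6 letters of which at most 1 is G or C, a loose form chosen because the known elements of Acta2 carry such a letter. Acta2 holds 2 of them, CCCTATATGG at bases -84 to -75 and CCTTGTTTGG at -34 to -25 from the start site. Mmp14 holds CCGAAAAAGG at -38 to -29. The same search found CCCTATAAGG in Timp3 (-47 to -38), CCAAACTTGG in Col1a2 (-228 to -219), CCTTCATAGG in Col6a3 (-224 to -215) and CCAAGAAAGG in Lrat (-223 to -214). Such a match was present in 6 of the 10 genes that fell after DEN in DKO liver and had an entry, in 9 of the 44 and in 9.78% of all 27025 genes in the table. Acta2 is among the 6 and the 9, and its match was fixed in advance because the form was chosen from it. These counts are therefore no test of the motif. The strict form, with only A or T in the middle, was in 1.62% of all genes, in 1 of the 44 and in 0 of the 10.

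The remaining motifs are those of general promoter elements and of stress-responsive factors, and their counts follow the same order. GC boxes (GGGCGG) were in 6 of the 10, 28 of the 44 and 35.4% of all genes, and both Bgn and Mmp14 carry them within 35 bases of the start. CCAAT boxes (CCAAT) were in 4 of the 10, 17 of the 44 and 37.5% of all genes, and a TATA-like sequence (TATANA) in 2, in 7 and in 25.7%. The AP-1 site (TGANTCA) was in 0 of the 10, in 1 of the 44 and in 7.82% of all genes, and the cAMP response element (TGACGTCA) in 0, in 0 and in 1.77%. Sparc has none of the 7 in this window. A match describes letters only and was not tested as a site.

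Of the 60 genes, 16 were called with DEN in DKO liver and 1 in WT liver. In DKO, 14 of the 60 fell and 2 rose at an adjusted p under 0.05 (limma, Benjamini-Hochberg over the 15951 genes), while 16.5% of all genes tested fell and 4.49% rose. The 14 were Acta2, Fn1, Col14a1, Sparc, Bgn, Mmp14, Col18a1, Lrat, Mmp2, Timp3, Pdgfrb, Col6a3, Col1a2 and Col3a1, and Lum and Col9a2 rose. The share of the 60 that fell was of the order of that background and was not tested against it. The median difference of the 60 was 0.021 on the log2 scale against -0.0040 over all genes. Of the roles, the collagens and the others differed by count: 9 of the 16 members other than collagens fell and 1 rose, with a median of -0.59, while 5 of the 44 collagens fell and 1 rose, with a median of 0.10. Signal level was not matched between the collagens and the others. Untreated DKO means were 3.35 for Col19a1 and 3.67 for Col12a1, but 8.52 for Col14a1. Outside the collagens they were 11.29 for Fn1 and 11.01 for Sparc, but 3.14 for Timp1. Genes near the filter limit give little room to show a fall, so the counts do not show that collagens were spared. All 16 called genes were also called within set 1, as were Col10a1 and Dcn.

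**Figure D1:**
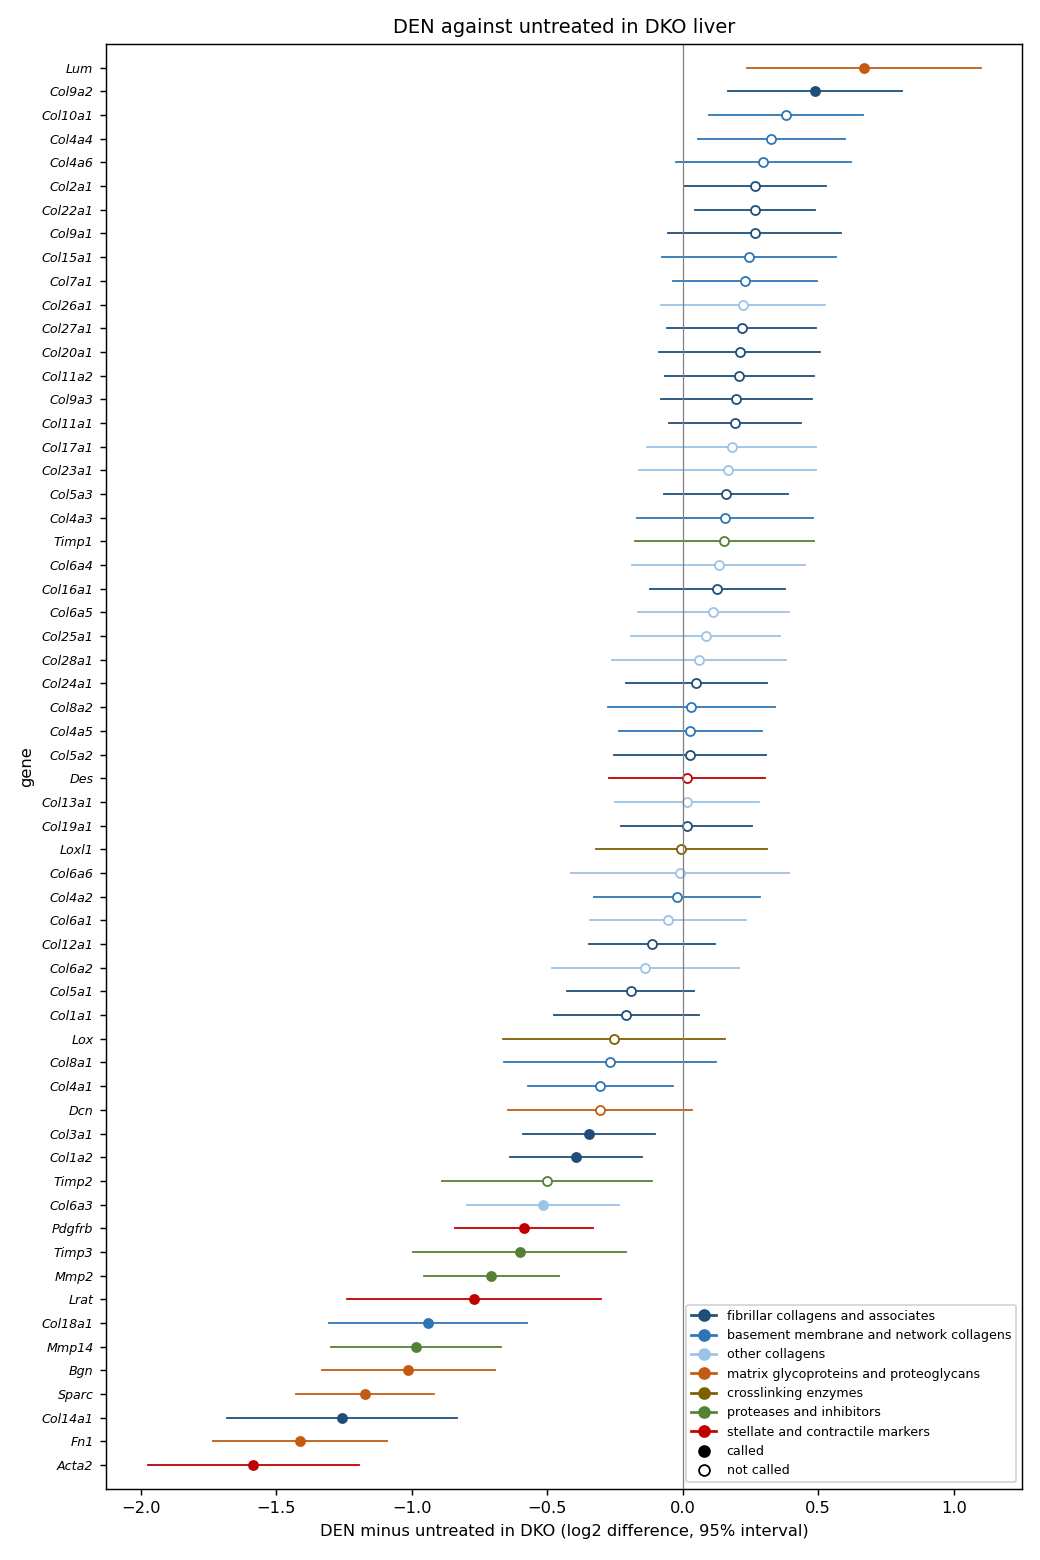
Log2 difference between DEN-treated and untreated DKO liver for each of the 60 genes (x axis), with its unadjusted 95% interval from limma; colours give the role and filled points the 16 called genes. Acta2 stands lowest at -1.58 and Lum highest at 0.67, and most collagens lie between -0.3 and 0.3.

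In WT liver 1 of the 60 was called over all arrays, Fn1, which fell. The background there was 1.91% of all genes lower and 2.08% higher. Within set 1 there were 3 calls, Fn1 and Col18a1 lower and Lum higher, while with no set term Fn1 was not called. The difference between the DKO and the WT responses was called for 8 members, 7 with the lower response in DKO (Sparc, Mmp2, Mmp14, Acta2, Fn1, Bgn and Pdgfrb) and 1 with the higher (Col4a4). Of all genes, 8.54% had a lower and 1.36% a higher response in DKO. Within set 1, 5 of the 8 were called, without Bgn, Pdgfrb and Col4a4. The responses of the genotypes share no arrays but come from 1 fit with common set terms. A difference below 0 in WT was seen in 12 of the 14 genes that fell in DKO and in 28 of the 60. The matching share over all genes that fell in DKO was not counted. Before DEN, Sparc was the member called between DKO and WT over all arrays and was higher in DKO, beside 0.865% of all genes higher and 0.244% lower. Within set 1, Col14a1 and Mmp14 were also called higher in untreated DKO.

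**Figure D2:**
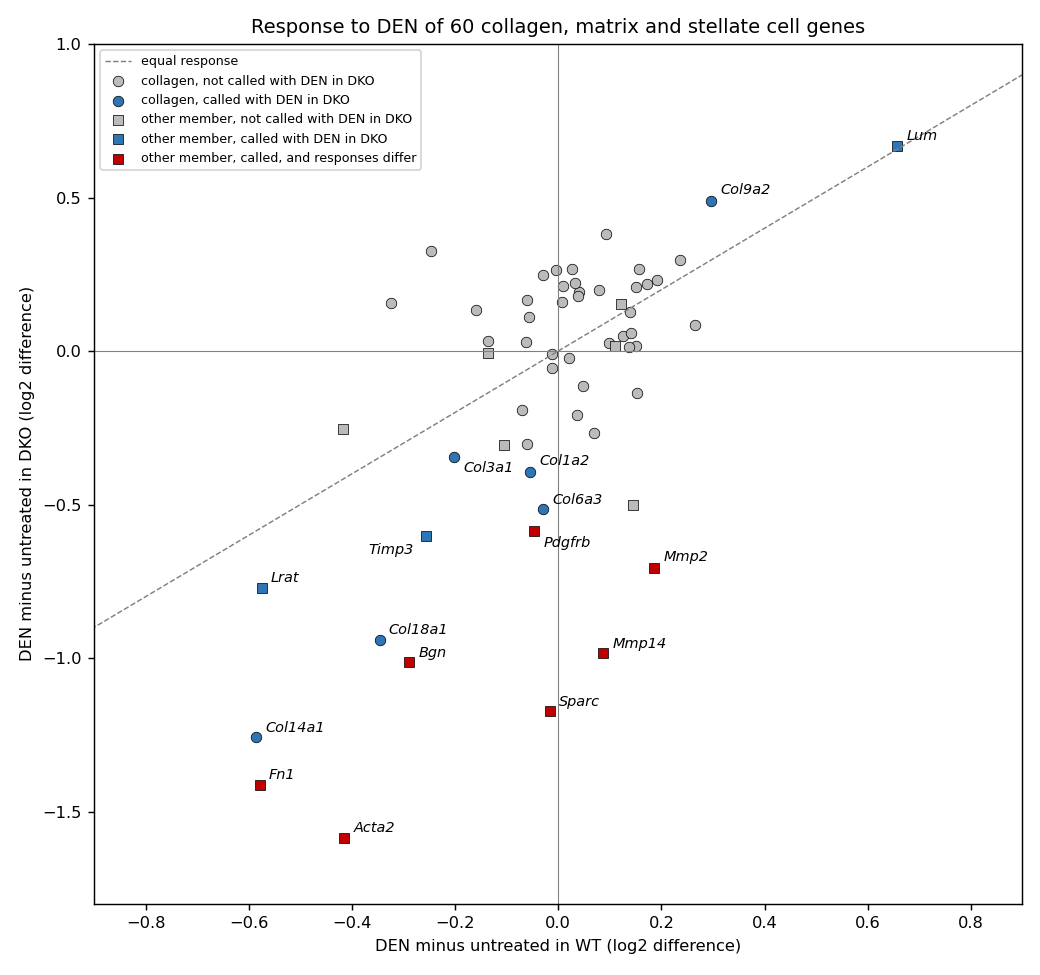
Log2 difference between DEN and untreated in WT (x axis) and in DKO liver (y axis) for the 60 genes, with circles for collagens and squares for the others. Genes in red were called in DKO and also in the difference of the responses. Sparc, Mmp14 and Mmp2 lie far below the dashed line of equal response (-0.02 against -1.17 for Sparc). Lum lies on it over all arrays, although the array sets differed for Lum in WT.

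After DEN, the 3 knockout genotypes were compared with WT, and these comparisons share the 5 WT arrays. In DKO, 7 members were lower (Mmp2, Fn1, Bgn, Sparc, Mmp14, Acta2 and Timp2) and 0 higher, against 9.14% and 2.69% of all genes. In p53KO, 3 were lower (Fn1, Sparc and Acta2) and 0 higher, against 1.07% and 0.708%. In RbKO, 4 were lower (Bgn, Col16a1, Acta2 and Fn1) and 1 higher (Lrat), against 6.13% and 5.23%. When each array was centred on its median, calls over all genes in RbKO went from 53.9% to 43.8% lower, and of the members Bgn was called lower and Lrat higher. Within set 1 the RbKO calls were Fn1 and Sparc, both lower. Between DKO and p53KO liver 0 members were called by limma, with 2 higher and 2 lower at an unadjusted p under 0.05, and Col14a1 and Col4a2 were called higher in DKO within set 1; of all genes 0.357% were higher and 1.51% lower in DKO. DKO against RbKO gave 1 member lower, Mmp2, and 0 higher, against 0.884% and 0.144% of all genes. Where limma called 0 members in a direction, the count at an unadjusted p under 0.05 was 2 higher with DEN in WT, 1 lower in DKO before DEN, and after DEN 2 higher in DKO and 0 higher in p53KO against WT and 1 higher in DKO against RbKO.

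**Figure D3:**
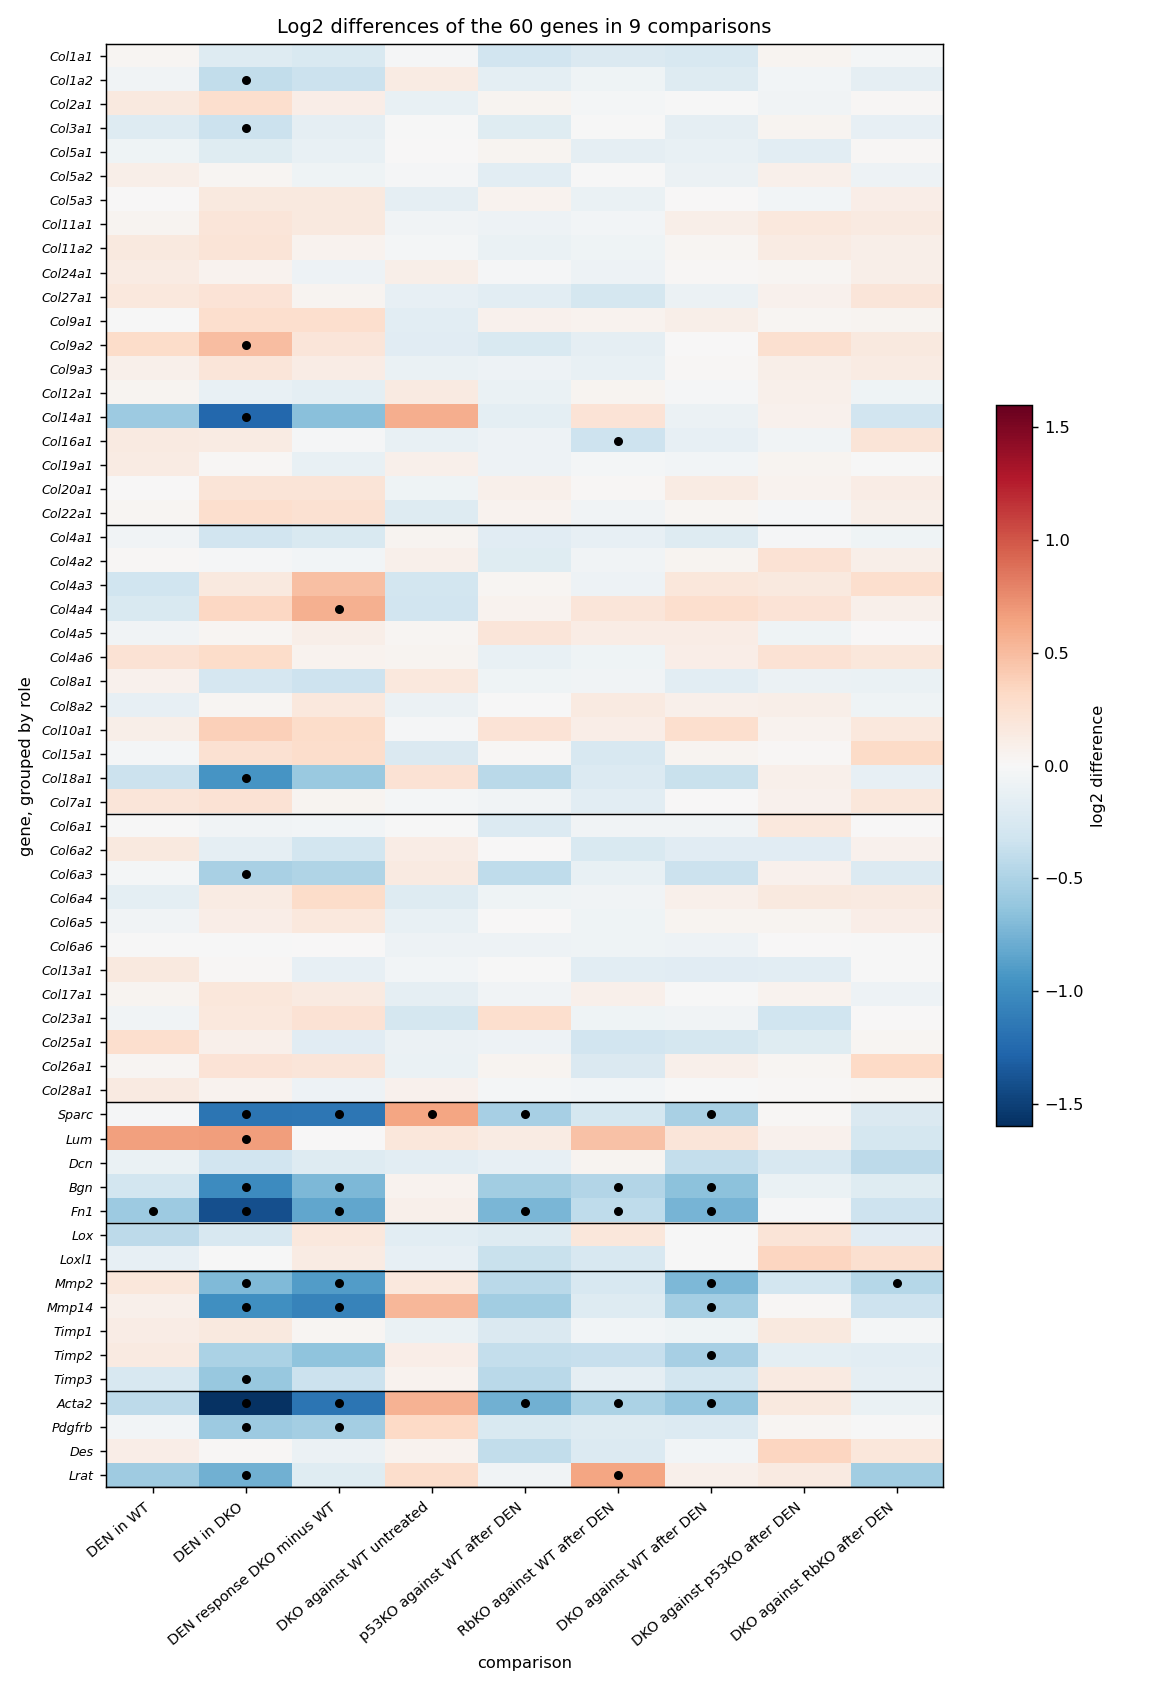
Log2 differences of all 60 genes (y axis, grouped by role with lines between the groups) in the 9 comparisons (x axis), from blue for lower to red for higher; black dots mark an adjusted p under 0.05. The column of DEN in DKO holds 16 dots, and dots lie mainly in the lower rows, which hold the genes other than collagens.

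The fibrillar collagens and the collagens that associate with them number 20, and 3 of them fell and 1 rose after DEN in DKO liver. Of all genes tested, 16.5% fell and 4.49% rose in that comparison. Col14a1, the chain of a collagen that binds to the surface of type I fibrils, had the largest fall of any collagen. It read 8.50, 8.45 and 8.60 in untreated DKO liver and 7.57, 7.59, 7.31, 6.98 and 7.04 after DEN. In WT the values were 7.85, 7.83 and 7.93 untreated and 7.46, 7.41, 7.60, 6.77 and 7.13 after DEN. Every DEN-treated array lay below every untreated array in both genotypes, and the untreated DKO arrays lay above all others. The log2 difference with DEN was -1.26 (SE 0.21, adjusted p 9.59e-05) in DKO, 2.39-fold lower, and -0.59 (SE 0.19, adjusted p 0.0939) in WT. The responses differed by -0.67 (SE 0.28, adjusted p 0.139), which was not called, nor was the untreated difference of 0.58 (SE 0.22, adjusted p 0.256) between DKO and WT (within set 1, 0.67 (adjusted p 0.0119)). p53KO liver gave 7.16, 6.53, 7.34, 7.55 and 7.66 and RbKO liver 7.46, 7.62, 7.40 and 7.60, which overlapped WT after DEN. Within set 1, p53KO was lower than WT by -0.64 (adjusted p 0.0189) and DKO was higher than p53KO by 0.64 (adjusted p 0.0235), against -0.16 (SE 0.21, adjusted p 0.76) and 0.07 (SE 0.17, adjusted p 0.89) over all arrays.

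Col1a1 and Col1a2 encode the chains of type I collagen, the main collagen of scars. Col1a2 read 5.86, 5.75 and 5.88 in untreated DKO and 5.53, 5.40, 5.46, 5.34 and 5.20 after DEN, without overlap. WT liver gave 5.73, 5.88 and 5.52 untreated and 5.55, 5.52, 5.71, 5.75 and 5.78 after DEN, which overlapped. It fell in DKO by a log2 difference of -0.39 (SE 0.12, adjusted p 0.0188), a call lost when any 1 of untreated DKO replicates 1 and 3 was left out (adjusted p 0.0653 to 0.0735), and in WT the difference was -0.05 (SE 0.11, adjusted p 0.875). For Col1a1 the DKO values were 5.64, 5.79 and 5.53 untreated and 5.66, 5.39, 5.32, 5.39 and 5.35 after DEN, and the highest treated array lay within the untreated range. In WT they were 5.64, 5.88 and 5.50 and 5.64, 5.47, 5.68, 5.84 and 5.91. Its difference in DKO, -0.21 (SE 0.13, adjusted p 0.274), missed the threshold, with a 95% interval of -0.48 to 0.06. After DEN, Col1a2 read 5.62, 5.27, 5.28, 5.39 and 5.48 in p53KO and 5.57, 5.62, 5.47 and 5.69 in RbKO, and Col1a1 5.30, 5.48, 5.39, 5.43 and 5.23 and 5.66, 5.48, 5.43 and 5.35. Neither gene was called between genotypes, and the ranges overlapped WT after DEN.

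Col3a1, the single chain of type III collagen found with type I in most soft tissue, read 5.73, 5.64 and 5.59 in untreated DKO and 5.28, 5.38, 5.33, 5.14 and 5.14 after DEN. All treated DKO arrays lay below the untreated ones. WT values were 5.56, 5.85 and 5.38 untreated and 5.47, 5.41, 5.50, 5.06 and 5.47 after DEN, with overlap. The gene fell in DKO by -0.35 (SE 0.12, adjusted p 0.0385) on the log2 scale. That call was lost when any 1 of DEN-treated DKO replicates 1 and 3 and untreated DKO replicates 1, 2 and 3 was left out (adjusted p 0.0591 to 0.135). In WT the difference was -0.20 (SE 0.11, adjusted p 0.377). p53KO liver gave 5.22, 5.23, 5.10, 5.00 and 5.36 and RbKO 5.40, 5.36, 5.44 and 5.40, neither called against WT.

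Col9a2, a chain of type IX collagen known from cartilage, was the collagen that rose. Untreated DKO liver gave 5.69, 5.41 and 5.70 and treated DKO 6.16, 5.90, 5.87, 5.92 and 6.34, without overlap, a log2 difference of 0.49 (SE 0.16, adjusted p 0.0256). The call was lost when any 1 of DEN-treated DKO replicate 1 and untreated DKO replicate 2 was left out (adjusted p 0.0602 to 0.141) and when no set term was fitted (adjusted p 0.0738). WT read 5.83, 5.84 and 5.99 untreated and 5.90, 5.98, 6.19, 6.43 and 6.54 after DEN, a difference of 0.30 (SE 0.15, adjusted p 0.304). Values were 6.13, 5.87, 5.73, 5.74 and 5.32 in p53KO and 6.11, 6.00, 5.75 and 6.19 in RbKO, overlapping WT. Col16a1, a further associated collagen, was -0.34 lower in RbKO than in WT after DEN (adjusted p 0.0398), a call lost when any 1 of RbKO replicates 2, 3 and 4 and DEN-treated WT replicates 1, 3, 4 and 5 was left out (adjusted p 0.0529 to 0.311) and within set 1, where the value was -0.24 (adjusted p 0.304). The other 15 genes with this role were called in none of the 9 comparisons, and the matching share of all genes was not counted.

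The 12 basement membrane and network collagens include 1 that fell after DEN in DKO liver, beside 16.5% of all genes. Col18a1 encodes type XVIII collagen, whose C-terminal fragment is endostatin. It read 6.71, 6.34 and 6.59 in untreated DKO and 5.83, 5.74, 5.69, 5.07 and 5.57 after DEN. WT liver gave 6.47, 6.56 and 5.78 and 5.73, 5.75, 6.13, 5.94 and 6.02. The DKO groups did not overlap, whereas in WT the untreated array of set 2 (replicate 3) lay among the treated ones. The gene fell by -0.94 (SE 0.18, adjusted p 0.000415) in DKO, 1.92-fold, and in WT the difference was -0.35 (SE 0.17, adjusted p 0.293), or -0.64 (adjusted p 0.00661) within set 1. The difference of the responses was -0.59 (SE 0.24, adjusted p 0.127), and -0.15 within set 1. p53KO read 5.22, 5.41, 5.57, 5.61 and 5.65, below all WT arrays after DEN, and RbKO 5.60, 5.66, 5.85 and 5.73, with differences of -0.44 (SE 0.18, adjusted p 0.205) and -0.22 (SE 0.16, adjusted p 0.387) that were not called. Within set 1 the p53KO difference was -0.56 (adjusted p 0.0277).

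Col4a1 and Col4a4 represent type IV collagen, Col4a1 from the chain pair of all basement membranes and Col4a4 from the network best known in the kidney glomerulus. Col4a1 read 5.70, 5.38 and 5.58 in untreated DKO and 5.18, 5.26, 5.38, 5.01 and 5.20 after DEN. Its WT values were 5.62, 5.55 and 5.35 and 5.48, 5.30, 5.40, 5.49 and 5.56. The DKO groups met at 5.38, and the difference of -0.30 (SE 0.13, adjusted p 0.101) was not called. The p53KO arrays gave 5.46, 4.99, 4.98, 5.21 and 5.40 and the RbKO arrays 5.37, 5.31, 5.26 and 5.31. Col4a4 went from 4.64, 4.51 and 4.58 to 4.78, 5.08, 4.91, 5.05 and 4.70 in DKO, and from 4.98, 4.68 and 4.95 to 4.44, 4.49, 4.97, 4.62 and 4.59 in WT. In DKO the treated arrays lay above the untreated ones, in WT the groups overlapped, and neither difference was called (0.33 (SE 0.13, adjusted p 0.0795) and -0.25 (SE 0.12, adjusted p 0.311)). The responses differed by 0.57 (SE 0.18, adjusted p 0.0426), with the higher response in DKO. That call was lost when any 1 of DEN-treated DKO replicates 2, 3 and 4, untreated DKO replicates 1, 2 and 3, DEN-treated WT replicates 1, 2, 4 and 5 and untreated WT replicates 1 and 3 was left out (adjusted p 0.0517 to 0.152), and within set 1 the value was 0.54 (adjusted p 0.115). Col4a4 read 4.70, 4.63, 4.64, 4.70 and 4.78 in p53KO and 4.76, 4.94, 4.87 and 4.72 in RbKO, with no call against WT. Col4a2, the partner chain of Col4a1, was called between DKO and p53KO within set 1 at 0.55 (adjusted p 0.0292), against 0.23 (SE 0.12, adjusted p 0.364) over all arrays. Col10a1, the chain of the type X collagen of growth cartilage, had a difference with DEN in DKO of 0.38 (SE 0.14, adjusted p 0.0503), and within set 1 of 0.39 (adjusted p 0.0125).

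Among the 12 other collagens, which include type VI and the transmembrane collagens, Col6a3 fell with DEN in DKO, beside 16.5% of all genes. It encodes the large chain of type VI collagen, a beaded filament around cells. Untreated DKO liver gave 5.67, 5.55 and 5.75 and treated DKO 5.11, 5.03, 5.42, 4.90 and 5.02, without overlap, against 5.46, 5.58 and 5.38 and 5.60, 5.30, 5.36, 5.56 and 5.36 in WT, which overlapped. The log2 difference was -0.51 (SE 0.14, adjusted p 0.00754) in DKO and -0.03 (SE 0.13, adjusted p 0.95) in WT, and the difference of the responses, -0.49 (SE 0.19, adjusted p 0.101), was not called. p53KO arrays read 5.18, 4.84, 4.97, 5.14 and 4.89, below all WT arrays after DEN, a difference of -0.41 (SE 0.14, adjusted p 0.114) that missed the threshold. RbKO arrays read 5.60, 5.25, 5.45 and 5.05. Its partner chains had differences in DKO of -0.05 (SE 0.14, adjusted p 0.818) for Col6a1 and -0.14 (SE 0.17, adjusted p 0.598) for Col6a2, neither called. Of the 44 collagens, 36 were called in no comparison. The share of all genes called in no comparison was not counted, so this number does not set collagens apart.

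The 5 glycoproteins and proteoglycans of the matrix held the largest share of changes among the roles, with 3 lower and 1 higher after DEN in DKO liver. The shares of all genes were 16.5% lower and 4.49% higher, and no role was tested against them. Sparc, a calcium-binding matricellular protein that binds collagen, was the gene with the smallest adjusted p. It read 11.08, 10.92 and 11.02 in untreated DKO liver and 9.95, 9.86, 9.92, 9.51 and 9.71 after DEN. WT liver gave 10.28, 10.47 and 10.10 untreated and 10.50, 10.44, 10.33, 9.89 and 10.08 after DEN. The untreated DKO arrays lay above every other array, the treated DKO arrays lay below both untreated groups, and the WT groups overlapped. The log2 difference with DEN was -1.17 (SE 0.12, adjusted p 1.26e-06) in DKO, 2.25-fold lower, and -0.02 (SE 0.12, adjusted p 0.971) in WT, and the responses differed by -1.16 (SE 0.17, adjusted p 0.000238). Before DEN, Sparc was higher in DKO than in WT by 0.64 (SE 0.13, adjusted p 0.0148). This untreated call was lost when any 1 of untreated DKO replicates 1 and 3 and untreated WT replicate 1 was left out (adjusted p 0.0705 to 0.13).

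After DEN, Sparc read 9.88, 9.55, 9.80, 9.80 and 9.73 in p53KO and 9.99, 10.01, 10.00 and 10.00 in RbKO. The p53KO arrays lay below all WT arrays, and RbKO overlapped WT through WT replicate 4, an array of set 2, which lay below all RbKO arrays. Against WT the log2 differences were -0.54 (SE 0.12, adjusted p 0.0285) in p53KO, -0.52 (SE 0.12, adjusted p 0.00449) in DKO and -0.29 (SE 0.11, adjusted p 0.0841) in RbKO, the first 2 called. The p53KO call was lost when any 1 of DEN-treated WT replicates 1 and 2 and p53KO replicates 1 and 2 was left out (adjusted p 0.0548 to 0.203). Within set 1 the RbKO difference was -0.42 (adjusted p 0.0372).

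Fn1 encodes fibronectin, which links cells to collagen and which hepatocytes secrete into plasma. It was the member called lower in WT liver over all arrays. Its WT values were 11.29, 11.43 and 10.99 untreated and 10.72, 10.59, 10.67, 10.62 and 10.72 after DEN, without overlap. In DKO they were 11.34, 11.34 and 11.20 untreated and 9.95, 10.12, 9.97, 10.09 and 10.05 after DEN, again without overlap, and the treated DKO arrays lay below all treated WT arrays. The log2 difference was -0.58 (SE 0.15, adjusted p 0.0234) in WT, or -0.70 within set 1 and -0.32 within set 2, and -1.41 (SE 0.16, adjusted p 1.96e-06) in DKO, 2.66-fold lower. The WT call was lost when any 1 of DEN-treated WT replicate 4 and untreated WT replicates 1 and 2 was left out (adjusted p 0.0517 to 0.18) and with no set term (adjusted p 0.134). The responses differed by -0.83 (SE 0.21, adjusted p 0.0139), a call lost when untreated WT replicate 3 was left out (adjusted p 0.101) and with no set term (adjusted p 0.109).

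In the other genotypes, Fn1 read 9.80, 9.61, 10.46, 10.39 and 10.39 in p53KO and 10.17, 10.07, 10.01 and 10.71 in RbKO. The 2 p53KO arrays of set 1 lay lower than the 3 of set 3, and 1 RbKO array, the one of set 2, lay within the WT range. Fn1 was lower than in WT by -0.73 (SE 0.16, adjusted p 0.0205) in p53KO, -0.41 (SE 0.14, adjusted p 0.0494) in RbKO and -0.75 (SE 0.15, adjusted p 0.00162) in DKO. Only the DKO call held without each of the arrays compared. The p53KO call was lost when any 1 of p53KO replicates 1 and 2 was left out (adjusted p 0.0915 to 0.142), and the RbKO call when any 1 of RbKO replicates 1, 2 and 3 and DEN-treated WT replicates 1, 2, 3, 4 and 5 was left out (adjusted p 0.0612 to 0.143). Within set 1 the RbKO difference was -0.58 (adjusted p 0.00921) and within set 2 it was 0.03.

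Bgn encodes biglycan, a small proteoglycan that binds collagen and TGF-beta. Untreated DKO liver gave 7.69, 7.70 and 7.77 and DEN-treated DKO 6.56, 7.11, 6.77, 5.98 and 6.42. WT gave 7.63, 7.75 and 7.63 untreated and 7.51, 7.16, 7.49, 7.28 and 7.46 after DEN. Treated arrays lay below untreated arrays in both genotypes, and the DKO arrays after DEN lay below those of WT. The log2 difference was -1.01 (SE 0.16, adjusted p 5.02e-05) in DKO and -0.29 (SE 0.15, adjusted p 0.321) in WT. Its responses differed by -0.72 (SE 0.21, adjusted p 0.0306), with -0.61 (adjusted p 0.0939) within set 1, and the call was lost when any 1 of DEN-treated DKO replicate 1, untreated DKO replicates 1, 2 and 3, DEN-treated WT replicate 1 and untreated WT replicates 1 and 3 was left out (adjusted p 0.0509 to 0.0996). p53KO liver gave 6.84, 6.47, 6.45, 6.74 and 6.50 and RbKO 6.75, 7.00, 6.85 and 7.03, all below WT after DEN. The differences from WT were -0.66 (SE 0.15, adjusted p 0.00421) in DKO, -0.47 (SE 0.14, adjusted p 0.0274) in RbKO and -0.56 (SE 0.16, adjusted p 0.063) in p53KO, of which the last missed the threshold; within set 1 the p53KO value was -0.73 (adjusted p 0.0119). The RbKO call was lost when any 1 of RbKO replicates 1, 3 and 4 and DEN-treated WT replicates 1, 3 and 5 was left out (adjusted p 0.0549 to 0.0835) and within set 1, where the value was -0.52 (adjusted p 0.054).

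Lum and Dcn, for lumican and decorin, encode small leucine-rich proteoglycans that shape collagen fibrils, and the genes are next to each other on mouse chromosome 10. Lum read 5.70, 6.14 and 5.98 in untreated DKO and 6.29, 6.86, 6.71, 6.05 and 5.69 after DEN. In WT it read 5.47, 5.45 and 5.93 and 6.94, 6.40, 6.50, 5.64 and 5.76. Both pairs of groups overlapped, and within the treated WT and DKO groups the arrays of set 1, replicates 1 to 3, lay above the others. Lum rose by 0.67 (SE 0.21, adjusted p 0.0237) in DKO, and in WT the difference was 0.66 (SE 0.20, adjusted p 0.0611), or 1.15 (adjusted p 0.00101) within set 1. In set 2 the treated WT arrays, at 5.64 and 5.76, lay below the untreated WT array at 5.93. The DKO call was lost when any 1 of DEN-treated DKO replicates 2 and 3 and untreated DKO replicates 1 and 3 was left out (adjusted p 0.0557 to 0.124) and with no set term (adjusted p 0.371). p53KO liver gave 6.59, 6.44, 5.87, 5.90 and 5.74 and RbKO 6.52, 7.07, 7.04 and 6.50, with no call against WT. Dcn had a difference of -0.31 (SE 0.17, adjusted p 0.199) with DEN in DKO and was called in no comparison over all arrays. Within set 1 that difference was -0.32 (adjusted p 0.0458), and DKO was lower than WT after DEN by -0.57 (adjusted p 0.00326), against -0.38 (SE 0.15, adjusted p 0.119) over all arrays.

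**Figure D4:**
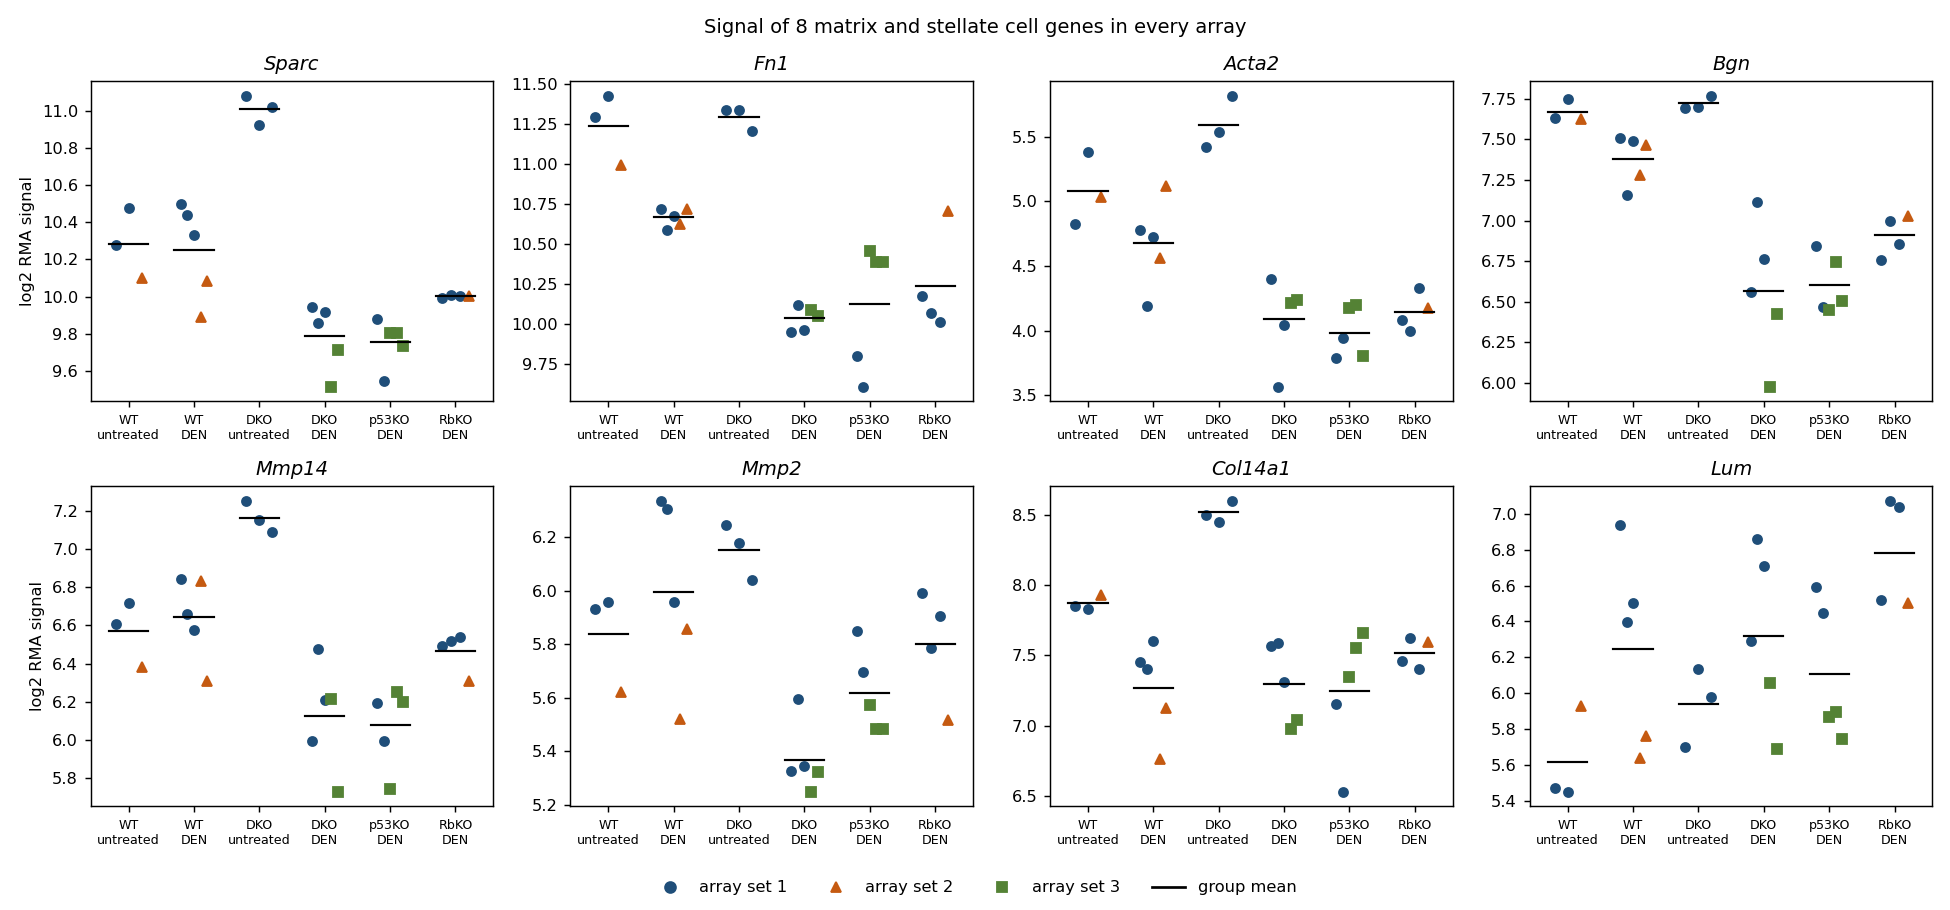
Log2 RMA signal (y axis) of 8 of the genes in each of the 25 arrays, by group (x axis), with the array set as colour and shape and the group mean as a line; the y axes differ and do not start at 0. Untreated DKO arrays are highest for Sparc, Acta2, Mmp14 and Col14a1. Treated DKO arrays are lower than untreated ones in all panels but Lum, and sets differ within a group, as for Lum and Fn1.

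The crosslinking enzymes Lox and Loxl1, which join collagen and elastin chains through lysines, were called in none of the 9 comparisons. With DEN in DKO their log2 differences were -0.25 (SE 0.20, adjusted p 0.392) for Lox and -0.01 (SE 0.15, adjusted p 0.986) for Loxl1. All arrays read 3.07 to 4.22 for Lox and 3.31 to 4.37 for Loxl1, near the filter limit.

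Of the 5 proteases and inhibitors, Mmp14, Mmp2 and Timp3 fell after DEN in DKO, beside 16.5% of all genes. Mmp14 is a membrane-anchored collagenase that activates the gelatinase Mmp2. It read 7.26, 7.15 and 7.09 in untreated DKO and 5.99, 6.48, 6.21, 6.21 and 5.73 after DEN. WT values were 6.61, 6.72 and 6.38 untreated and 6.84, 6.66, 6.57, 6.83 and 6.31 after DEN. Untreated DKO arrays were the highest of all, treated DKO arrays lay below them without overlap, and the WT groups overlapped. The log2 difference was -0.98 (SE 0.15, adjusted p 5.31e-05) in DKO and 0.09 (SE 0.14, adjusted p 0.833) in WT, and the responses differed by -1.07 (SE 0.21, adjusted p 0.00204). The untreated difference between DKO and WT was 0.53 (SE 0.17, adjusted p 0.126), and 0.50 (adjusted p 0.0345) within set 1. After DEN, p53KO read 6.19, 5.99, 5.74, 6.25 and 6.20 and RbKO 6.49, 6.52, 6.54 and 6.31. All p53KO arrays lay below the WT arrays, but the difference of -0.56 (SE 0.15, adjusted p 0.0583) missed the threshold, whereas DKO was lower by -0.54 (SE 0.14, adjusted p 0.015); this DKO call was lost when DEN-treated DKO replicate 1 was left out (adjusted p 0.0562), and within set 1 the p53KO difference was -0.60 (adjusted p 0.0145).

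Mmp2 digests denatured collagen and type IV collagen. Its values were 6.24, 6.18 and 6.04 in untreated DKO and 5.33, 5.60, 5.35, 5.25 and 5.32 after DEN, without overlap. In WT they were 5.93, 5.96 and 5.62 and 6.34, 6.30, 5.96, 5.52 and 5.86, with overlap and the set 2 arrays lowest in each group. Mmp2 fell by -0.71 (SE 0.12, adjusted p 0.000148) in DKO, the WT difference was 0.19 (SE 0.11, adjusted p 0.435), and the responses differed by -0.89 (SE 0.17, adjusted p 0.00138). p53KO liver gave 5.85, 5.70, 5.57, 5.48 and 5.48 and RbKO 5.99, 5.79, 5.90 and 5.52. DKO was lower than WT by -0.72 (SE 0.11, adjusted p 0.000272), the smallest adjusted p of the 60 in that comparison. Mmp2 was the member called lower in DKO than in RbKO, by -0.46 (SE 0.11, adjusted p 0.0475). That call was lost when any 1 of DEN-treated DKO replicates 1, 2, 3 and 5 and RbKO replicates 1, 2, 3 and 4 was left out (adjusted p 0.0534 to 0.148) and within set 1, where the value was -0.47 (adjusted p 0.0536). Against p53KO the DKO difference was -0.29 (SE 0.10, adjusted p 0.138).

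The tissue inhibitors of metalloproteinases block these enzymes, and Timp3 is the one that binds to the matrix. Timp3 read 5.78, 5.89 and 5.53 in untreated DKO and 5.18, 4.94, 5.16, 4.77 and 5.16 after DEN, without overlap. WT read 6.02, 5.71 and 5.49 and 5.56, 5.30, 5.39, 5.94 and 5.29, with overlap. It fell in DKO by -0.60 (SE 0.19, adjusted p 0.0252), a call lost when any 1 of DEN-treated DKO replicate 2 and untreated DKO replicates 1 and 2 was left out (adjusted p 0.0709 to 0.112), and the WT difference was -0.26 (SE 0.18, adjusted p 0.515). Values were 5.07, 5.01, 5.16, 4.45 and 4.57 in p53KO and 5.07, 5.32, 5.06 and 5.83 in RbKO. The p53KO arrays lay below all WT arrays after DEN, but the difference of -0.43 (SE 0.19, adjusted p 0.248) was not called.

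Timp2, which also takes part in the activation of Mmp2 by Mmp14, read 5.90, 6.41 and 6.42 in untreated DKO and 5.41, 5.99, 5.90, 4.92 and 5.45 after DEN. Its WT values were 5.82, 6.50 and 5.80 and 6.61, 6.08, 6.36, 5.97 and 5.80. Groups overlapped in both genotypes, and the difference of -0.50 (SE 0.19, adjusted p 0.0603) in DKO missed the threshold. After DEN it was lower in DKO than in WT by -0.54 (SE 0.18, adjusted p 0.0474), a call lost when any 1 of DEN-treated DKO replicates 1, 3 and 4 and DEN-treated WT replicates 1, 3 and 4 was left out (adjusted p 0.0567 to 0.171) and within set 1, where the value was -0.59 (adjusted p 0.065). p53KO gave 5.96, 5.75, 5.53, 5.25 and 5.39 and RbKO 5.65, 6.02, 5.81 and 5.89, without a call. Timp1, often used as a marker of fibrogenic activity, lay near the filter limit throughout. It read 3.14, 3.46 and 3.28 in untreated WT, 3.34, 3.44, 3.29, 3.89 and 3.16 in WT after DEN, 3.17, 3.15 and 3.12 in untreated DKO and 3.61, 3.18, 3.23, 3.80 and 3.23 in DKO after DEN. In p53KO it read 3.15, 3.01, 3.46, 3.41 and 3.52 and in RbKO 3.55, 3.26, 3.11 and 3.52. The ranges of WT and of the 3 knockouts after DEN overlapped, and the DEN differences of 0.12 (SE 0.15, adjusted p 0.766) in WT and 0.15 (SE 0.16, adjusted p 0.536) in DKO were not called.

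Of the 4 stellate and contractile markers, Acta2, Pdgfrb and Lrat fell after DEN in DKO, beside 16.5% of all genes, and Des was not called. Acta2, the smooth muscle actin of vessel walls and activated stellate cells, had the largest fall of all 60 genes. It read 5.42, 5.53 and 5.82 in untreated DKO and 4.40, 3.56, 4.04, 4.21 and 4.23 after DEN. WT values were 4.82, 5.39 and 5.04 untreated and 4.78, 4.19, 4.72, 4.56 and 5.12 after DEN. The DKO groups were more than 1 log2 unit apart, while the WT groups overlapped. The log2 difference was -1.58 (SE 0.19, adjusted p 3.51e-06) in DKO, 3.00-fold lower, and -0.41 (SE 0.18, adjusted p 0.22) in WT, and the responses differed by -1.17 (SE 0.26, adjusted p 0.00525). The untreated DKO arrays lay above those of WT, with a difference of 0.55 (SE 0.21, adjusted p 0.23) that was not called.

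After DEN, Acta2 read 3.78, 3.95, 4.17, 4.20 and 3.81 in p53KO and 4.08, 4.00, 4.33 and 4.18 in RbKO. All 3 knockouts were lower than WT, by -0.77 (SE 0.19, adjusted p 0.0365) in p53KO, -0.51 (SE 0.17, adjusted p 0.0446) in RbKO and -0.62 (SE 0.18, adjusted p 0.0233) in DKO, and each group overlapped WT through WT replicate 2, the lowest WT array. Within set 1 none of the 3 was called: the values were -0.70 (adjusted p 0.0742), -0.43 (adjusted p 0.264) and -0.56 (adjusted p 0.0803). The p53KO call was lost when any 1 of DEN-treated WT replicates 1, 3 and 5 and p53KO replicates 1 and 2 was left out (adjusted p 0.0515 to 0.129). The RbKO call was lost when any 1 of RbKO replicates 1, 2 and 4 and DEN-treated WT replicates 1, 3, 4 and 5 was left out (adjusted p 0.0502 to 0.198), and the DKO call when any 1 of DEN-treated DKO replicate 2 and DEN-treated WT replicate 1 was left out (adjusted p 0.0663 to 0.109). Acta2 and Fn1 were the members called lower in all 3 genotypes, against the same WT arrays. The share of all genes called lower in all 3 was not counted.

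**Figure D5:**
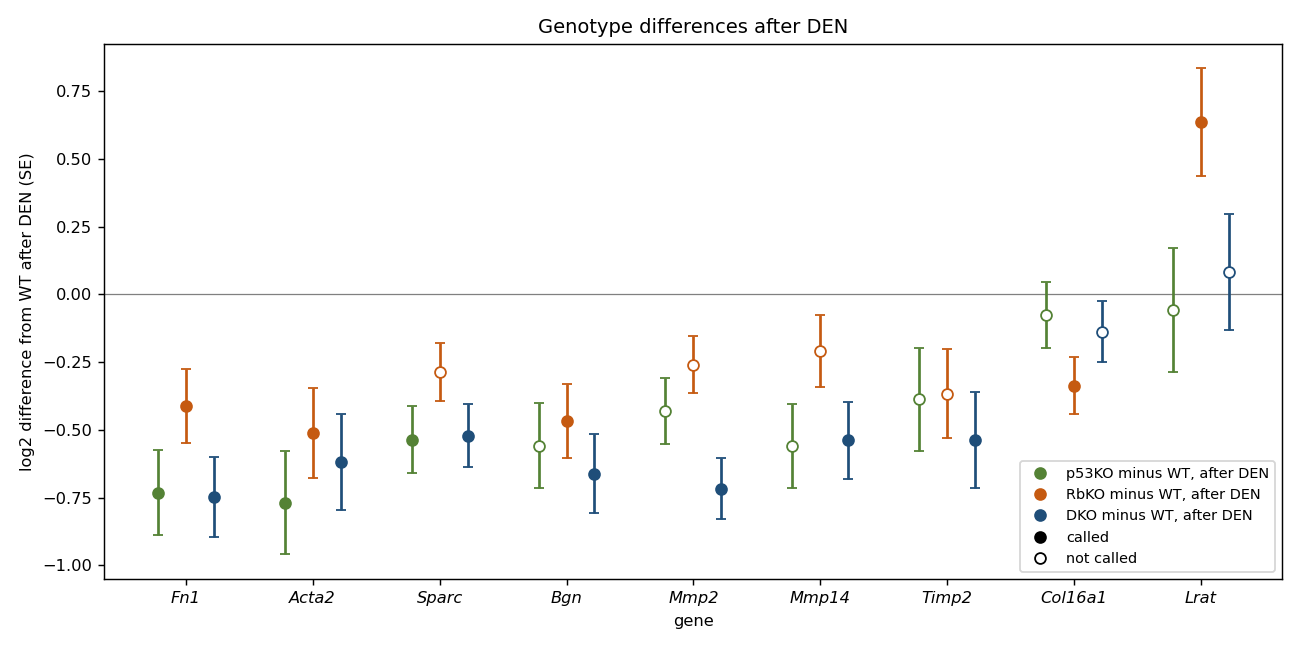
Log2 difference from WT after DEN (y axis, with its SE from limma) in p53KO, RbKO and DKO liver for the 9 genes called in any of these comparisons (x axis); filled points were called. Fn1 and Acta2 are filled in all 3 genotypes, Mmp2 in DKO at -0.72, and Lrat stands above 0 in RbKO at 0.64.

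Pdgfrb, the receptor for PDGF-B on stellate cells and pericytes, read 4.95, 5.24 and 5.29 in untreated DKO and 4.65, 4.62, 4.43, 4.37 and 4.21 after DEN. WT values were 4.88, 4.84 and 4.88 and 4.76, 4.68, 4.79, 4.76 and 5.12. The DKO groups did not overlap and the WT groups did. The gene fell by -0.58 (SE 0.12, adjusted p 0.00129) in DKO, with a WT difference of -0.05 (SE 0.12, adjusted p 0.904). The responses differed by -0.54 (SE 0.17, adjusted p 0.0443), but within set 1 the value was -0.48 (adjusted p 0.106), and after centring each array on its median the adjusted p was 0.0575. This call was also lost when any 1 of DEN-treated DKO replicates 2, 3 and 5, untreated DKO replicates 2 and 3, DEN-treated WT replicates 1, 3 and 5 and untreated WT replicates 1, 2 and 3 was left out (adjusted p 0.051 to 0.133). p53KO read 4.49, 4.63, 4.29, 4.38 and 4.08 and RbKO 4.49, 4.80, 4.55 and 4.59, neither called against WT.

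Lrat, the enzyme that makes the retinyl esters stored by quiescent stellate cells, read 7.52, 7.45 and 7.40 in untreated DKO and 6.85, 6.87, 6.93, 6.64 and 6.41 after DEN, without overlap. WT gave 7.06, 7.05 and 6.84 and 6.31, 6.81, 7.18, 6.16 and 5.42, with overlap through 1 treated array. The log2 difference was -0.77 (SE 0.23, adjusted p 0.0166) in DKO and -0.57 (SE 0.22, adjusted p 0.145) in WT, and the responses differed by -0.20 (SE 0.31, adjusted p 0.763), which was not called. The DKO call was lost when untreated DKO replicate 1 was left out (adjusted p 0.0597) and with no set term (adjusted p 0.0573). p53KO read 6.22, 6.27, 6.85, 7.06 and 6.74 and RbKO 7.46, 7.07, 6.91 and 6.94. Lrat was higher in RbKO than in WT after DEN by 0.64 (SE 0.20, adjusted p 0.0394), with 0.38 (adjusted p 0.229) within set 1 and 1.15 within set 2. That call was lost when any 1 of RbKO replicates 1 and 4 and DEN-treated WT replicates 1, 4 and 5 was left out (adjusted p 0.0552 to 0.274).

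Des encodes desmin, the intermediate filament of stellate cells in rodents and of muscle. It read 4.01, 3.99 and 4.01 in untreated WT, 4.28, 3.89, 4.02, 4.10 and 4.29 in WT after DEN, 4.01, 4.22 and 3.93 in untreated DKO and 3.97, 4.24, 3.98, 4.17 and 4.34 in DKO after DEN. p53KO gave 3.88, 3.59, 3.65, 4.12 and 3.89 and RbKO 4.01, 3.71, 4.10 and 3.74. The groups overlapped throughout, and the difference with DEN in DKO was 0.02 (SE 0.14, adjusted p 0.95), with a 95% interval of -0.27 to 0.30.

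The genes around these members in the pathway were taken from 5 further lists. With DEN in DKO, 9 of 19 collagen-processing genes tested fell and 0 rose, with a list median of -0.36 on the log2 scale. Examples are Bmp1, the protease that trims the end of procollagen (-0.91, SE 0.13), and Plod1, a lysyl hydroxylase (-0.98, SE 0.17). Of 29 TGF-beta pathway genes, 13 fell and 1 rose, with a median of -0.29. Tgfbi, a matrix protein induced by TGF-beta, differed by -1.40 (SE 0.21) and Ltbp4, which tethers latent TGF-beta, by -1.13 (SE 0.18). Among 15 laminin and basement membrane genes 6 fell and 0 rose, led by the nidogens Nid1 (-1.66, SE 0.19) and Nid2 (-0.79, SE 0.12), which link laminin to type IV collagen.

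Of 29 elastic fibre and matricellular genes, 12 fell and 0 rose, among them Sparcl1, a relative of Sparc (-1.46, SE 0.25), and Vtn, for vitronectin, a plasma protein of hepatocytes (-0.94, SE 0.15). Of 20 other matrix proteases and inhibitors, 5 fell and 1 rose, the macrophage metalloelastase Mmp12, by 0.79 (SE 0.17). These counts stand beside 16.5% of all genes lower and 4.49% higher. In WT, 0 genes of these 5 lists were called by limma, with 5 higher and 8 lower of 112 at an unadjusted p under 0.05. After DEN, DKO was lower than WT in 6 of the 19 processing genes, 3 of the 29 TGF-beta genes, 3 of the 15 laminin genes, 2 of the 29 elastic fibre genes and 1 of the 20 proteases, with 0 higher, beside 9.14% and 2.69% of all genes.

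Lists of markers of other liver cell types were counted in the same fit. Their counts with DEN in DKO stand beside 16.5% of all genes lower and 4.49% higher. With DEN in DKO, 8 of 9 sinusoidal endothelial markers fell, and their mean log2 signal per array went from 6.63 to 6.75 in untreated DKO to 5.71 to 6.01 after DEN, against 6.27 to 6.74 and 6.21 to 6.57 in WT. Neutrophil markers fell in 4 of 6, and the list mean was 5.83 to 6.58 in untreated DKO, 4.45 to 5.40 in treated DKO and 4.37 to 4.81 in untreated WT. The 9 stellate cell markers, of which Lrat, Pdgfrb and Des are members, had 5 lower and 0 higher, led by Reln (-1.78, SE 0.25), with list means of 5.65 to 5.69 untreated and 4.99 to 5.30 after DEN. Of 5 smooth muscle markers, which include Acta2, 2 fell, the second being Tagln (-0.73, SE 0.18).

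With DEN in DKO, portal fibroblast markers had 2 of 6 lower and 1 higher and Kupffer cell markers 2 of 7 lower. Erythroid markers had 2 of 3 lower, and hepatocyte markers 1 of 6 lower and 2 higher. The shares of all genes were 16.5% lower and 4.49% higher. Mesothelial and cholangiocyte markers had 0 called of 5 and of 4 by limma, with 1 lower in each at an unadjusted p under 0.05. Of the markers listed, Cftr, Epb42 and Rhag were below the limit on average. After DEN, 6 of the 9 endothelial markers were lower in DKO than in WT, as were 2 of the 6 portal fibroblast markers and 1 each of the stellate, smooth muscle, erythroid and neutrophil lists, beside 9.14% of all genes. The part of any change in cell composition in the differences above was not tested.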

How the data were processed

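RNA of frozen livers was amplified and labelled with biotin for 1-colour arrays, 25 in all, per the labels. The deposited values are log2 signals that the authors made by RMA in Affymetrix Expression Console 1.1, per the submitters' processing notes; RMA corrects background, applies quantile normalization and summarises each probe set. Whether all arrays were normalized together is not given in the sources used here.

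Of 35555 probe sets, 21789 carried 1 gene symbol in the probe table. The probe set with the highest mean stood for a gene with several, which gave 19938 genes, and 3987 with a mean under the 20th percentile (3.33 log2) were left out. The model, in limma 3.58.1 (lmFit, eBayes) under R 4.3.3, held the 6 group means and the array set over the 25 arrays, with statmod 1.5.0 for a random block. Tests were two-sided, adjusted by the Benjamini-Hochberg method over 15951 genes, and called at 0.05. SE is the moderated standard error. The scripts were tested on simulated data.

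The 60 members, the roles and the lists were chosen with earlier results of these data known. Values in every array are given for the 4 members of a role with the smallest adjusted p among those called, and for Col1a1, Col3a1, Col4a1, Acta2, Des, Lrat and Timp1. Promoters are from RefSeq, and all 60 symbols were in its gene table.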

Additional observations from a re-analysis of the deposited data

Results flagged for a closer look

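The difference between the DEN response of DKO and that of WT liver passed its own test for 8 of the 60 genes, 7 lower and 1 higher in DKO, beside 8.54% and 1.36% of all genes. Within set 1 it passed for 5, without Bgn, Pdgfrb and Col4a4. On the log2 scale it was -1.17 for Acta2, -1.16 for Sparc, -1.07 for Mmp14, -0.89 for Mmp2, -0.83 for Fn1, -0.72 for Bgn, -0.54 for Pdgfrb and 0.57 for Col4a4. Each value is the DKO minus WT difference after DEN less the same difference before DEN. Before DEN that difference was 0.55 for Acta2, 0.64 for Sparc and 0.53 for Mmp14, and after DEN -0.62, -0.52 and -0.54. The untreated levels thus enter these values as well.

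A single array lay far from the rest of its group in 4 of the 88 sets of values examined, or 4.5%, where chance alone gives about 1 in 20. Col3a1 read 5.06 in WT replicate 4 after DEN, below the other 4 arrays. Pdgfrb read 5.12 in WT replicate 5 after DEN, above the others. In DKO after DEN, Col1a1 read 5.66 in replicate 1 and Mmp2 5.60 in replicate 2, both above the others. The WT arrays named belong to set 2 and the DKO arrays to set 1. These signals were not adjusted for the set, so a set difference is not separated from a single odd array.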

How the results depend on the processing

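The count of 16 members called with DEN in DKO stayed between 14 and 18 under the other settings and between 12 and 18 when 1 array was left out, and the 7 called in DKO against WT after DEN stayed between 6 and 10 and between 5 and 7. Other counts moved. With set 1 alone, DEN in WT gave 3 in place of 1, the difference of responses 5 in place of 8, DKO against WT untreated 3 in place of 1, p53KO against WT 6 in place of 3, RbKO against WT 2 in place of 5, DKO against p53KO 2 in place of 0 and DKO against RbKO 0 in place of 1. Without set 2, DEN in WT gave 3, the difference of responses 5, RbKO against WT 1 and DKO against RbKO 0. With no set term, DEN in WT gave 0, p53KO against WT 10, RbKO against WT 0 and DKO against RbKO 0. With the set as a random block, p53KO against WT gave 5 and DKO against RbKO 0. Without a filter on dim genes RbKO against WT gave 3 and DKO against RbKO 0, and centring each array gave 2 in RbKO against WT. With 1 array left out, DEN in WT gave 0 to 3, the difference of responses 4 to 8, DKO against WT untreated 0 to 1, p53KO against WT 0 to 5, RbKO against WT 0 to 5, DKO against p53KO 0, and DKO against RbKO 0 to 1. The cause of these moves was not tested, beyond the fewer arrays of some settings. The share of all genes called under each setting is not given here. Moves of the members therefore cannot be told apart from moves of all genes.

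Of the 42 calls of members over the 9 comparisons, 24 were lost without at least 1 of the arrays compared and 18 held without each of them; counted by fit, the call was lost in 115 of 424. Within set 1, 11 of the 42 were lost and 14 others appeared. The matching numbers over all genes are not given here. For the 22 genes given array by array, each in its comparison of smallest adjusted p alone, the settings other than leaving out an array kept the side of the threshold 164 times and lost the call 10 times, with 0 reversed. No paired analysis was possible because the labels number no replicates across groups. No other background correction was run, since the values are already summarised by RMA. Genes near the filter limit, such as Timp1, Lox and Des, give little room to show a fall.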
